A study of Mus musculus with 6 samples.

Results

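The genes described here run protein folding and quality control in the endoplasmic reticulum (ER) of newborn mouse lenses. They comprise oxidoreductases, chaperones, the sensors and effectors of the unfolded protein response, factors of ER-associated degradation (ERAD) and subunits of the translocon. The 39 members were taken by gene symbol from a list made by function, and all 39 had a row among the 22298 entries of the expression table. The samples were ocular lenses of C57BL/6 mice at postnatal day 0, in 3 wild-type (WT) libraries and 3 libraries labelled Fyco1-/-, lettered A, B and C. Each library came from 10 pooled lenses, so the spread is between pools and not between single animals. Fyco1 encodes an adaptor that joins autophagosomes to kinesin motors.

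Secreted and membrane proteins enter the ER through the Sec61 channel, are folded there by chaperones and disulfide isomerases, and are sent back to the cytosol for degradation when they fail. When unfolded proteins gather, the sensors encoded by Ern1, Eif2ak3 and Atf6 switch on a response that raises chaperones, ERAD factors and translocon parts and slows translation. A lens fibre cell makes much membrane and crystallin protein before it removes its ER together with its other organelles.

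Much of the unfolded protein response is driven through short promoter elements. The ER stress element (ERSE) reads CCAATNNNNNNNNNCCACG, and ERSE-II reads ATTGGNCCACG. Promoters of RefSeq (GRCm38.p6), from 250 bases before to 50 bases after each start, were searched on both strands for exact matches, and 33 of the 39 members had such a promoter. Manf, Hyou1, Atf6, Derl1, Sec61a1 and Ssr2 were not matched. The ERSE occurred in 9 of the 33 members (27.3%) and in 37 of all 27025 genes searched (0.137%). As the members were listed by function, that share describes the list and tests nothing. ERSE-II occurred in 2 members, Herpud1 and Dnajb11, and in 12 genes in all (0.0444%). The sequence TGACGTGG, the core of an element bound by Xbp1 and Atf6, occurred in 1 member, Txndc5, and in 0.714% of all genes. Txndc5 held neither of the other elements. The matches are shown because genes that share an element had both positive and negative differences between the genotypes. Capitals mark the fixed letters, and each site is written in the orientation that reads as the element.
Pdia6 ERSE (chr12:17266491-17266509, plus strand): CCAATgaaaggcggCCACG
Canx ERSE (chr11:50325800-50325818, minus strand): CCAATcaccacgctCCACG
Hspa5 ERSE (chr2:34772025-34772043, plus strand): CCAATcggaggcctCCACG
Dnajc3 ERSE (chr14:118937827-118937845, plus strand): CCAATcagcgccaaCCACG
Calr ERSE (chr8:84847075-84847093, plus strand): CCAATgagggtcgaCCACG
Herpud1 ERSE-II (chr8:94386377-94386387, plus strand): ATTGGgCCACG
Dnajb11 ERSE-II (chr16:22857852-22857862, plus strand): ATTGGcCCACG
The other ERSE matches lay in Hsp90b1, which had 2, Creld2, Syvn1 and Derl3.

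The surroundings of 4 of these sites follow, from 50 bases before to 30 bases after the element, read along the gene and upstream of the GENCODE gene. Pdia6 and Canx were lower in Fyco1-/- lenses, whereas Dnajc3 and Herpud1 were not called.
Pdia6 (chr12:17266441-17266539, plus strand): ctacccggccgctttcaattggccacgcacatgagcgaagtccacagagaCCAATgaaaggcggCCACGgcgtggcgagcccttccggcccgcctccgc
Canx (chr11:50325770-50325868, minus strand): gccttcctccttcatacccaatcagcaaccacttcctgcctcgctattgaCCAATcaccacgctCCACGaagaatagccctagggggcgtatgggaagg
Dnajc3 (chr14:118937777-118937875, plus strand): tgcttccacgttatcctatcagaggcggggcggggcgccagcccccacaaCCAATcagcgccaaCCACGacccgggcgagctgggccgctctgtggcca
Herpud1 (chr8:94386327-94386417, plus strand): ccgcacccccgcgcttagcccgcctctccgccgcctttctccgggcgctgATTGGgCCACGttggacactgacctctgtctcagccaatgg

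**Figure D1:**
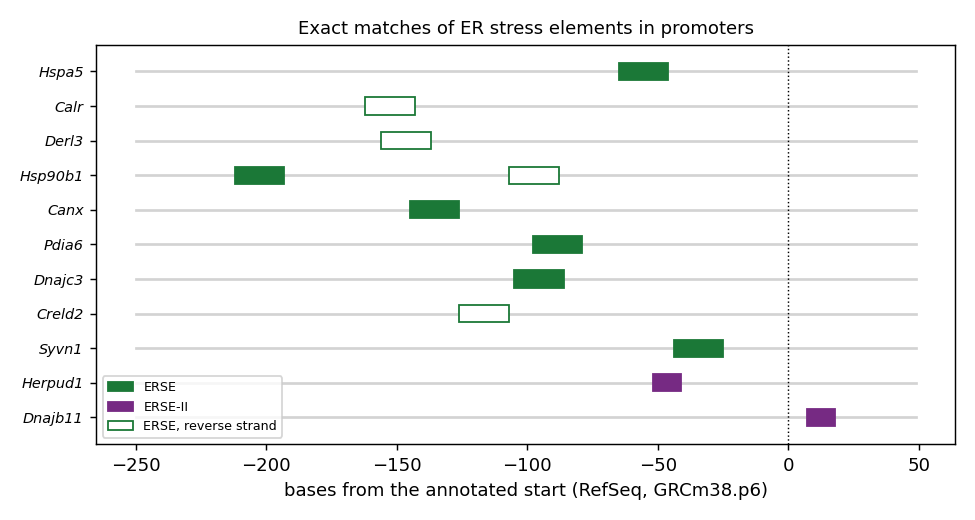
Positions of exact ERSE and ERSE-II matches in the promoters of 11 members, in bases from the annotated start (x axis); grey lines span the searched window, filled boxes are on the strand of the gene and open boxes on the other strand. All matches but that of Dnajb11 lie before the start, between -212 (Hsp90b1) and -26 (Syvn1).

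Values are FPKM, fragments scaled to gene length and library size, so that levels of different genes can be compared per length. Where 3 values stand together, they are libraries A, B and C in that order. Read counts were not part of the table, but the steps between small values place the libraries at an estimated 16.9 M to 19.9 M reads. Fyco1 itself ran from 5.11 to 5.40 FPKM in WT and from 4.59 to 4.87 FPKM in the libraries labelled Fyco1-/-, without a call (limma adjusted p = 0.273), so its level does not check the genotype labels. All 10 lens fibre markers were detected, with a summed level of 226250 to 234364 FPKM in WT and 232142 to 238811 FPKM in Fyco1-/-. Lens epithelium markers summed to 576 to 637 FPKM in WT and 485 to 513 FPKM in Fyco1-/-, and 5 of those 10 genes were called lower; their part in the results for the members was not tested. WT B stood apart in the muscle genes Tnnt3, at 7.29 FPKM against 0.475 to 1.22 FPKM in the other libraries, and Ckm, at 2.43 FPKM against at most 0.372 FPKM. Of the macrophage markers, WT B was far the highest in Lyz2, at 23.1 FPKM against at most 0.554 FPKM elsewhere. WT B was also highest in Csf1r, at 0.742 FPKM against at most 0.411 FPKM, and in Cd68, at 1.30 FPKM against at most 1.08 FPKM. Aif1, Cx3cr1, C1qa and Ptprc were highest in another library. The cornea markers Krt5 and Aldh3a1 were not raised in WT B, at 0.273 and 0.0288 FPKM. In whole lenses, fewer cells of a type and less RNA per cell cannot be told apart.

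Of the 39 members, 38 passed the filter of a mean of at least 0.5 FPKM and were tested. Only Derl3, a derlin of ERAD, fell below it, with 0, 0.186 and 0.129 FPKM in WT and 0.119, 0.307 and 0.118 FPKM in Fyco1-/-. Tested members ranged in WT from 1.37 FPKM for Edem1, which directs misfolded glycoproteins to ERAD, to 242 FPKM for Pdia6. The genes Pdia6, Canx, Hyou1 and Sel1l were lower in Fyco1-/- at a limma adjusted p under 0.05, and none was higher. These 4 are 10.5% of the tested members. Of all 12001 tested genes, 8.43% were called in either direction, 5.02% lower and 3.42% higher. With a filter of at least 1 FPKM in 3 libraries, which all 38 members passed, 10% of 10496 genes were called. The members called lower were then still 4. At an unadjusted p under 0.05, 4 members were higher and 9 lower, where 24.4% of all tested genes passed in either direction. The 3 libraries of 1 genotype lay wholly below or above those of the other in 16 of 38 members (42.1%), against 29.7% of all tested genes. Fyco1-/- lay below in 11 members (18.6% of all tested genes) and above in 5 (11.1% of all tested genes). The median log2 fold change was -0.07 over the members and -0.04 over all tested genes. Other scalings moved the calls, to 2 higher and 3 lower with median-of-ratios scaling and to 1 higher and 4 lower with quantile normalization. Without WT A or WT B, 1 member was called lower, and without Fyco1-/- B, 2 were.

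**Figure D2:**
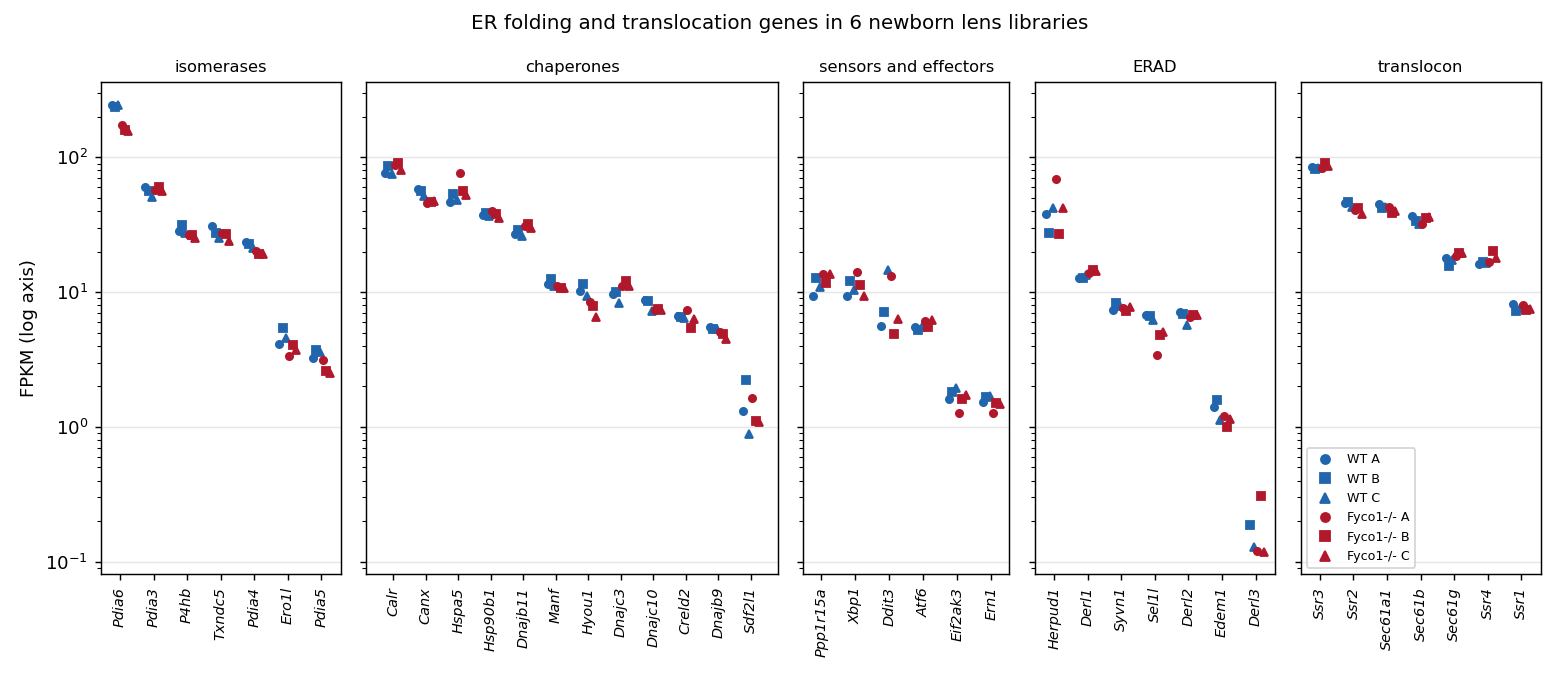
FPKM on a log axis of the 39 members in each of the 6 libraries (blue WT, red Fyco1-/-, marker shape by letter), in 5 role groups and sorted by WT mean. Pdia6 stands highest at 242 FPKM in WT, and Ddit3 and Herpud1 spread widely among libraries of 1 genotype; the WT A value of Derl3 is 0 and not drawn.

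**Figure D3:**
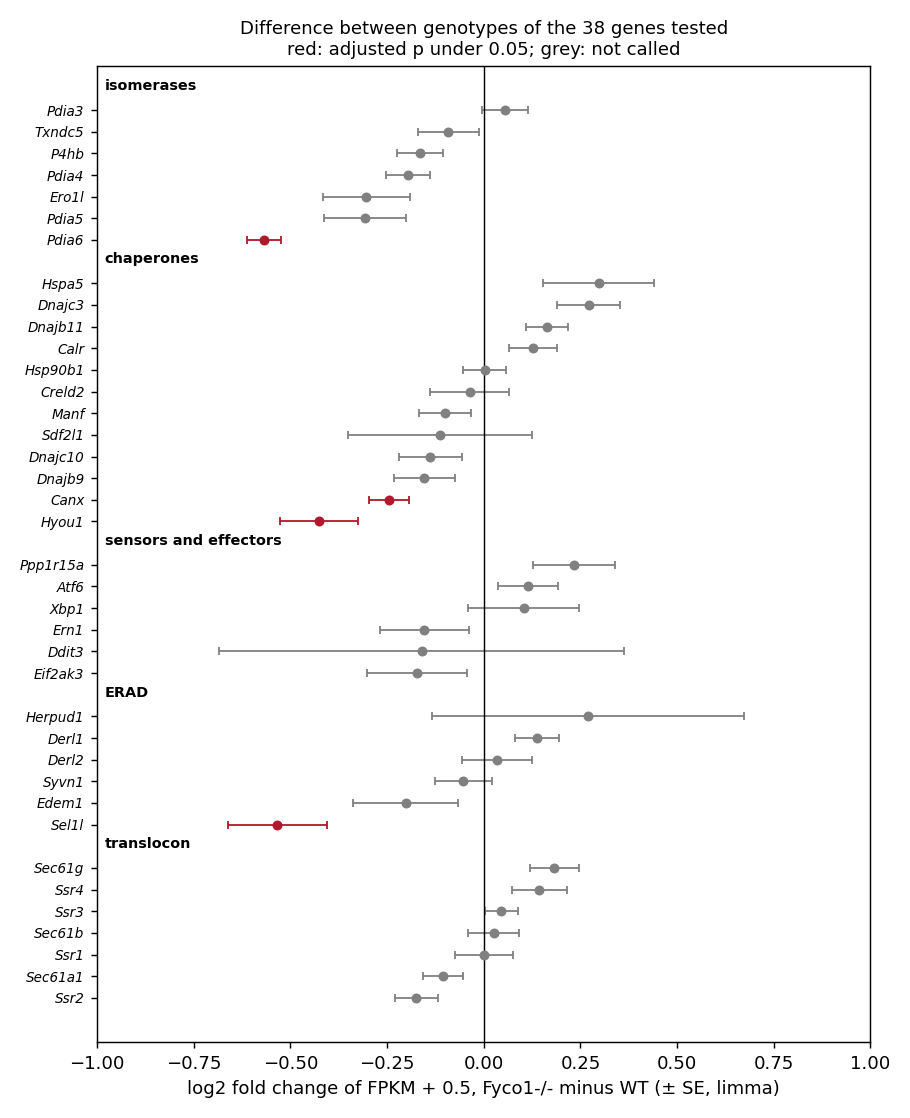
Log2 fold change of FPKM + 0.5, Fyco1-/- minus WT, with its standard error from limma, for the 38 tested members by role group. The 4 called genes, in red, all lie below 0, and 6 of 7 isomerases and 2 of 7 translocon genes have negative values.

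The oxidoreductases, which make and shuffle the disulfide bonds of secreted proteins, had 1 of 7 tested genes that fell and none that rose. Of all tested genes, 5.02% were called lower and 3.42% higher. Negative log2 fold changes were found in 6 of the 7, against 59.9% of all tested genes. All Fyco1-/- libraries lay below all WT libraries in 5, against 18.6% of all tested genes. Their summed level was 379 to 394 FPKM in WT and 289 to 311 FPKM in Fyco1-/-. Much of that difference lay in Pdia6, a disulfide isomerase that also acts on the sensor kinases of the unfolded protein response.

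Pdia6 (ENSMUSG00000020571.12, GRCm38 chr12:17266545-17284770, plus strand) stood at 243, 237 and 246 FPKM in WT. In Fyco1-/- it stood at 174, 158 and 158 FPKM. The groups lay far apart, from 242 ± 4.52 to 163 ± 8.94 FPKM (mean ± SD, n = 3), a log2 fold change of -0.57 (SE 0.04, limma adjusted p = 4.97e-05). Pdia6 made up 62.8% ± 1.78 of the summed oxidoreductase level in WT and 54.5% ± 1.28 in Fyco1-/- (SD, n = 3). Per length it was the most abundant member in WT, 8.30 ± 0.725 times the level of P4hb (SD, n = 3), which encodes the classical disulfide isomerase. In Fyco1-/- that ratio was 6.27 ± 0.325. The call of Pdia6 held in all 15 other settings, with an adjusted p of 1.75e-05 to 0.000825. Of the 3745 exon bases of Pdia6, 50 overlap Atp6v1c2 on the opposite strand, and the handling of strand was not stated.

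The other oxidoreductases did not pass the threshold. P4hb stood at 28.6, 31.6 and 27.6 FPKM in WT and 26.4, 26.7 and 25.1 FPKM in Fyco1-/- (limma adjusted p = 0.126). Pdia4, an isomerase with additional thioredoxin domains, went from 22.5 to 19.6 FPKM (log2 -0.20, adjusted p = 0.0635). Ero1l, the oxidase that passes electrons from isomerases to oxygen, went from 4.72 to 3.72 FPKM (log2 -0.30, adjusted p = 0.129). Pdia5 went from 3.52 to 2.76 FPKM (log2 -0.31, adjusted p = 0.106). In each of these 4 genes all 3 Fyco1-/- libraries lay below all 3 WT libraries. Pdia3, the isomerase that works with calnexin and calreticulin on glycoproteins, overlapped, with 60.2, 56.4 and 51.2 FPKM in WT and 57.3, 60.1 and 56.6 FPKM in Fyco1-/- (difference log2 0.06, adjusted p = 0.623). Txndc5 also overlapped (log2 -0.09, adjusted p = 0.521).

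Among 12 chaperones and their helpers 2 fell and none rose (16.7% called, against 8.43% of all tested genes). Values were negative in 7 (58.3%, against 59.9% of all tested genes) and positive in 5, with a median log2 of -0.07. At an unadjusted p under 0.05, 2 were higher and 2 lower, where 24.4% of all tested genes passed in either direction. The summed level overlapped between genotypes, 286 to 321 FPKM in WT and 293 to 334 FPKM in Fyco1-/-.

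Canx, the membrane-bound lectin chaperone calnexin (ENSMUSG00000020368.15, chr11:50293961-50325673, minus strand), stood at 58.4, 56.2 and 51.6 FPKM in WT. In Fyco1-/- the values were 46.0, 46.5 and 47.5 FPKM, all below WT. Canx fell by 0.24 on the log2 scale (SE 0.05, limma adjusted p = 0.018), a call that was lost when WT A (adjusted p = 0.0726), WT B (0.067) or Fyco1-/- B (0.0558) was left out. Calr, its soluble counterpart calreticulin, stood at 76.8, 86.4 and 75.0 FPKM in WT and 88.5, 90.8 and 80.8 FPKM in Fyco1-/-. The groups of Calr overlapped (log2 0.13, adjusted p = 0.244). The ratio of Calr to Canx within a library was 1.31, 1.54 and 1.45 in WT. In Fyco1-/- it was 1.93, 1.95 and 1.70, with no overlap. Canx, its divisor, was itself lower in Fyco1-/-, so the ratio is not a separate result.

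Hyou1, a large ER chaperone that also exchanges nucleotide on BiP (ENSMUSG00000032115.14, chr9:44379490-44392369, plus strand), stood at 10.3, 11.4 and 9.43 FPKM in WT. In Fyco1-/- it stood at 8.42, 7.85 and 6.54 FPKM, again below every WT library (log2 -0.43, SE 0.10, adjusted p = 0.0286). The call was lost on leaving out WT A (adjusted p = 0.0833) or WT B (0.107), and likewise Fyco1-/- B (0.0621) or C (0.0789). Hyou1 lies on chromosome 9, as Fyco1 does, 79.4 Mb away. Manf lies on chromosome 9 as well (chr9:106838312-106891979), nearer to Fyco1, and was not called (log2 -0.10, limma adjusted p = 0.408). On that chromosome 13.1% of 634 tested genes were called, against 8.21% of 10750 on the others. The part of the chromosome in the result for Hyou1 was not tested.

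**Figure D4:**
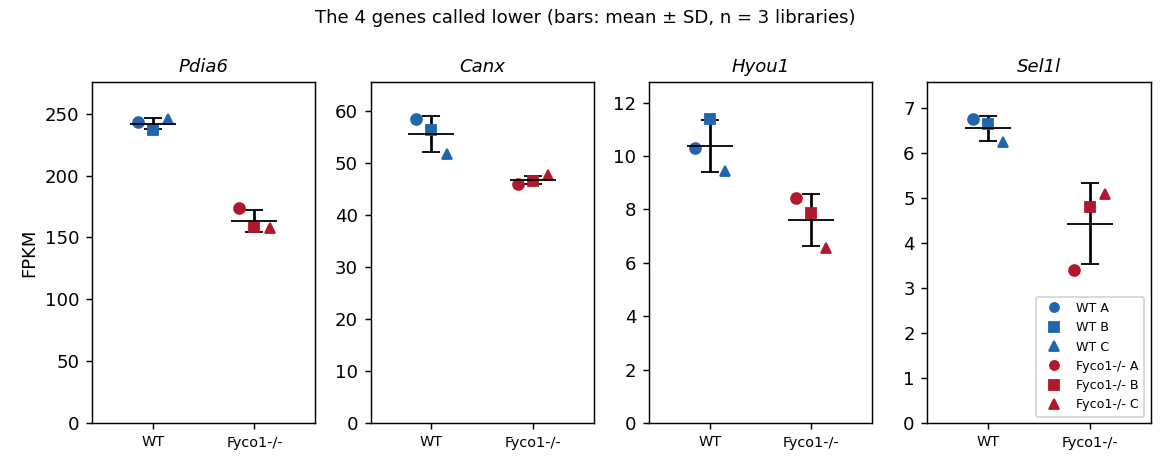
FPKM by library of Pdia6, Canx, Hyou1 and Sel1l, with mean ± SD (n = 3 libraries per genotype) and axes from 0. Every Fyco1-/- value lies below every WT value in the 4 genes, most widely in Pdia6, and Fyco1-/- A is the lowest library of Sel1l at 3.39 FPKM.

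BiP, encoded by Hspa5, is the main Hsp70 chaperone of the ER and the usual readout of the unfolded protein response. Its levels were 46.6, 53.8 and 48.1 FPKM in WT and 76.7, 56.1 and 52.2 FPKM in Fyco1-/-. Fyco1-/- A stood above the rest, and Fyco1-/- C lay within the WT range. The difference was not called (log2 0.30, SE 0.14, adjusted p = 0.265). Hsp90b1, the Hsp90 of the ER, was near-equal at 37.6 ± 0.905 and 37.7 ± 2.39 FPKM (SD, n = 3; log2 0.00, SE 0.05, adjusted p = 0.987).

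None of the J-domain co-chaperones of BiP was called. Dnajc3, which also restrains the kinase encoded by Eif2ak3, stood at 9.71, 10.1 and 8.36 FPKM in WT and 11.1, 12.1 and 11.03 FPKM in Fyco1-/-, with all Fyco1-/- libraries above (log2 0.27, adjusted p = 0.0708). Dnajb11 lay likewise, 27.1, 29.0 and 26.2 FPKM in WT and 30.8, 31.8 and 29.8 FPKM in Fyco1-/- (difference log2 0.16, adjusted p = 0.0978). All Fyco1-/- libraries of Dnajb9 lay below WT, at 5.40 FPKM in WT and 4.80 FPKM in Fyco1-/- (difference log2 -0.15, adjusted p = 0.266), and those of Dnajc10, the J-protein with disulfide reductase activity, overlapped with WT (log2 -0.14, adjusted p = 0.335). Manf, Creld2 and Sdf2l1, small proteins induced by ER stress, overlapped (log2 -0.10, -0.04 and -0.11, adjusted p = 0.408, 0.868 and 0.823). With median-of-ratios scaling Dnajc3 and Dnajb11 were called higher (adjusted p = 0.0229 and 0.0295), and with quantile normalization Dnajc3 was (adjusted p = 0.0272).

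In the authors' deposited table, whose fold changes come from DESeq2 with its own scaling, 7 of 38 members had an adjusted p under 0.05 (18.4%, against 9.37% of the 13066 entries with such a value, 4.15% lower and 5.22% higher). The 4 lower members there were the same 4 as here. The 3 higher ones were Dnajc3 (log2 0.31, adjusted p = 0.000828), Dnajb11 (log2 0.21, adjusted p = 0.0167) and Calr (log2 0.17, adjusted p = 0.0296), per the authors' deposited table. The authors' deposited table gave Hspa5 a log2 fold change of 0.29 and an adjusted p of 0.206.

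None of the 6 sensors and effectors of the unfolded protein response was called by limma, and none had an unadjusted p under 0.05. Shares over all tested genes were 8.43% called and 24.4% at such a p. With so few genes, these counts do not set the group apart from all tested genes. Atf6, a membrane-bound transcription factor released by cleavage, read 5.51, 5.26 and 5.55 FPKM in WT and 6.08, 5.55 and 6.17 FPKM in Fyco1-/- (difference log2 0.11, adjusted p = 0.404). Ern1, the kinase and nuclease that splices Xbp1 mRNA, read 1.54, 1.68 and 1.69 FPKM in WT and 1.27, 1.51 and 1.48 FPKM in Fyco1-/- (difference log2 -0.15, adjusted p = 0.455). Eif2ak3, the kinase PERK, read 1.62, 1.81 and 1.96 FPKM in WT and 1.27, 1.62 and 1.74 FPKM in Fyco1-/- (difference log2 -0.17, adjusted p = 0.453). All Fyco1-/- libraries lay below WT for Ern1, while Atf6 and Eif2ak3 overlapped. Xbp1, the transcription factor made by that splicing, read 9.37, 12.1 and 10.4 FPKM in WT and 14.1, 11.2 and 9.34 FPKM in Fyco1-/-, with overlap (log2 0.10, adjusted p = 0.719). A value per gene does not separate spliced from unspliced Xbp1.

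Ddit3, the stress transcription factor CHOP, varied widely within each genotype, with 5.61, 7.09 and 14.6 FPKM in WT and 13.2, 4.86 and 6.35 FPKM in Fyco1-/- (difference log2 -0.16, SE 0.52, adjusted p = 0.891). WT C and Fyco1-/- A were the high libraries, so each genotype held 1. Ppp1r15a, the phosphatase subunit that restores translation, stood at 9.41, 12.7 and 10.9 FPKM in WT. In Fyco1-/- it stood at 13.7, 11.7 and 13.5 FPKM (difference log2 0.23, limma adjusted p = 0.208). Herpud1, an ERAD organiser induced by the same pathways, stood at 38.1, 27.6 and 42.3 FPKM in WT and 69.3, 27.0 and 41.9 FPKM in Fyco1-/- (difference log2 0.27, SE 0.40, adjusted p = 0.75). Its highest library was Fyco1-/- A, and its lowest were WT B and Fyco1-/- B.

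Chac1, a glutathione-degrading enzyme outside the 39 that is induced through Atf4 and CHOP, gave 18.3, 13.7 and 75.3 FPKM in WT and 83.4, 3.07 and 16.0 FPKM in Fyco1-/-. The range over the 6 libraries was 27.2-fold, while the genotypes were not called different (log2 -0.68, SE 1.48, adjusted p = 0.837). Trib3, a pseudokinase of that arm, reached 2.95 FPKM in WT C and 2.59 in Fyco1-/- A, with 0.404 to 1.47 elsewhere. Atf3 reached 1.88 and 1.85 FPKM in those libraries, with 0.181 to 1.13 elsewhere. Atf4 mRNA itself ran only from 73.8 to 86.9 FPKM. The haemoglobin gene Hba-a1 was also highest in Fyco1-/- A and WT C, at 163 and 92.7 FPKM against at most 63.1 elsewhere. So was Hbb-bs, at 66.6 and 83.3 FPKM against at most 51.9 elsewhere. Other red blood cell markers differed. Hba-a2 was highest in WT C but lowest in Fyco1-/- A, at 9.33 and 2.3 FPKM. Hbb-bt was higher in WT A than in Fyco1-/- A. Alas2 was highest in Fyco1-/- A, at 1.02 FPKM, but only 0.62 FPKM in WT C. Red blood cell markers summed to 241 and 195 FPKM in Fyco1-/- A and WT C and to 81.4 to 126 FPKM elsewhere. Most of each sum came from Hba-a1 and Hbb-bs. The part of blood cells in the library differences of the stress genes was not tested. Chac1, Trib3, Atf3 and Hba-a1 were singled out after their values were seen.

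**Figure D5:**
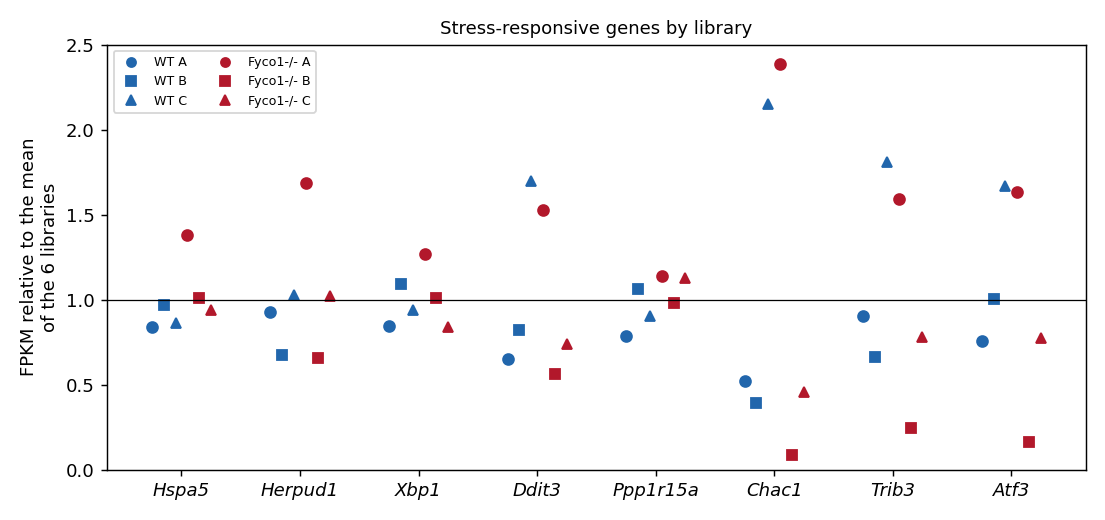
FPKM of 8 stress-responsive genes in each library, relative to the mean of the 6 libraries (line at 1). Ddit3, Chac1, Trib3 and Atf3 are highest in WT C and Fyco1-/- A, whereas Hspa5, Herpud1 and Xbp1 are highest in Fyco1-/- A alone.

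Of 6 tested ERAD genes, 1 fell and none rose (limma), with 1 higher and 1 lower at an unadjusted p under 0.05. Over all tested genes, 8.43% were called and 24.4% had an unadjusted p under 0.05. Sel1l, the scaffold of the ubiquitin ligase that clears misfolded ER proteins (ENSMUSG00000020964.14, chr12:91806043-91849157, minus strand), stood at 6.76, 6.64 and 6.23 FPKM in WT. In Fyco1-/- it stood at 3.39, 4.80 and 5.08 FPKM, all below WT (log2 -0.53, SE 0.13, adjusted p = 0.0308). Sel1l did not pass without WT A (adjusted p = 0.102), WT B (0.0938) or WT C (0.0627), nor with quantile normalization (0.0579) and with median-of-ratios scaling (0.0525). Syvn1, the ligase held by that scaffold, overlapped at 7.86 ± 0.51 and 7.56 ± 0.279 FPKM (SD, n = 3; log2 -0.05, adjusted p = 0.718). Derl1, a derlin of the retrotranslocation channel, stood at 12.6, 12.8 and 13.3 FPKM in WT and 13.9, 14.5 and 14.4 FPKM in Fyco1-/-, all above WT (log2 0.14, adjusted p = 0.172). Derl2 (log2 0.03, adjusted p = 0.855) and Edem1 (log2 -0.20, adjusted p = 0.404) overlapped. Derl1 and Derl2 share near-identical stretches with other genes or pseudogenes, so reads may be shared.

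Of 7 tested translocon genes none was called by limma, against 8.43% of all tested genes. At an unadjusted p under 0.05, 1 was higher and 1 lower, where 24.4% of all tested genes passed in either direction. The genotypes did not overlap in 3 of the 7 (42.9%, against 29.7% of all tested genes). The authors' deposited table called none of the 7, against 9.37% of its entries with an adjusted p. The summed level was 243 to 255 FPKM in WT and 242 to 253 FPKM in Fyco1-/-. The channel subunit Sec61a1 went from 43.5 to 40.5 FPKM (log2 -0.10, adjusted p = 0.245), Sec61b from 34.0 to 34.6 FPKM (log2 0.03, adjusted p = 0.856) and Sec61g from 16.9 to 19.2 FPKM (log2 0.18, adjusted p = 0.111). Of these 3 subunits, Sec61g alone had all Fyco1-/- libraries above WT, and both Sec61b and Sec61g have near-identical copies. Exons of Txndc5, Hsp90b1, Manf, Eif2ak3, Syvn1, Derl2, Sec61a1 and Ssr2 overlap other annotated genes, which makes their values uncertain.

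The translocon-associated proteins Ssr1 to Ssr4 form 1 complex beside the channel, yet their levels per length differed widely. Their GENCODE exon lengths did too, from 1864 bases for Ssr2 to 10431 for Ssr1. Reads in WT A, computed back from FPKM with those lengths, were near-equal for Ssr2 (1453) and Ssr1 (1435). They were 6028 for Ssr3 and 852 for Ssr4, so those genes differed in estimated reads as well. The part of the annotated length in the differences among the 4 genes was not tested. Ssr3 was the second most abundant member, with 85.4, 82.0 and 83.6 FPKM in WT and 82.9, 90.2 and 86.0 FPKM in Fyco1-/- (difference log2 0.04, adjusted p = 0.573). Ssr1 stood at 7.66 ± 0.465 and 7.66 ± 0.391 FPKM (SD, n = 3; log2 0.00, adjusted p = 0.997). Ssr2 went from 45.3 to 40.1 FPKM with all Fyco1-/- libraries below WT (log2 -0.17, adjusted p = 0.0845). Ssr4 went from 16.5 to 18.4 FPKM with all Fyco1-/- libraries above WT (log2 0.14, adjusted p = 0.25).

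Set by promoter element, the 10 tested members with an ERSE or ERSE-II had 6 positive and 4 negative log2 fold changes, from -0.57 (Pdia6) to 0.30 (Hspa5), with a median of 0.06. The 22 tested members with a searched promoter and neither element had 9 positive and 13 negative values, with a median of -0.13. Calls numbered 2 lower in the first set (Pdia6 and Canx) and 1 lower in the second (Sel1l). Of all tested genes, 59.9% had negative values, with a median of -0.04, and 5.02% were called lower. The split by element is a description of few genes, without a test.

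Another 107 genes of the same pathways were listed, of which 100 were tested, and 4 rose and 7 fell. These 11 of 100 stand beside the 8.43% called among all tested genes. With median-of-ratios scaling the split was 6 higher and 5 lower, and with quantile normalization 5 higher and 7 lower. Leaving out WT A left 5 calls, WT B 6, Fyco1-/- B 7 and Fyco1-/- C 6. Of 13 other oxidoreductases 3 fell and none rose (23.1% called, against 8.43% of all tested genes). P4ha1, the collagen prolyl hydroxylase subunit that works with the product of P4hb, fell from 45.1 ± 5.197 to 29.5 ± 1.42 FPKM (SD, n = 3; log2 -0.60, limma adjusted p = 0.00166). The membrane-bound thioredoxin gene Tmx4 (log2 -0.34, adjusted p = 0.0104) and the sulfhydryl oxidase gene Qsox1 (log2 -0.23, adjusted p = 0.0431) fell as well. Of 22 other chaperones and glycoprotein folding genes 3 fell and none rose (13.6% called, against the same 8.43%). Prkcsh and Ganab encode the subunits of glucosidase II, which trims glycans for calnexin binding (log2 -0.26 and -0.29, adjusted p = 0.00916 and 0.0334). The collagen chaperone gene Serpinh1 was the third (log2 -0.52, adjusted p = 0.0141).

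Of 16 other regulators Serp1, which stabilises membrane proteins during ER stress, fell (log2 -0.19, limma adjusted p = 0.0349) and none rose. That is 6.25% called, near the 8.43% of all tested genes. Of 22 other ERAD genes 2 rose and none fell (9.09% called, against 8.43% of all tested genes). Both encode selenoproteins of the ERAD membrane complex. Vimp went from 20.8 FPKM in WT to 27.8 FPKM (by log2 0.41, adjusted p = 0.000855), and Selk from 22.8 FPKM in WT to 26.9 FPKM (by log2 0.24, adjusted p = 0.0281). Of 27 other genes of translocation (such as Sec62, Sec63 and the signal recognition particle), signal peptidase and oligosaccharyltransferase, 2 rose and none fell. These 2 are 7.41%, beside the same 8.43%. Srp14, a signal recognition particle subunit, rose from 142 ± 1.24 to 183 ± 4.21 FPKM (SD, n = 3; log2 0.36, adjusted p = 0.000189). The signal peptidase gene Sec11c rose from 7.10 to 8.86 FPKM (log2 0.30, adjusted p = 0.0195).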

How the data were processed

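Per the labels, RNA of P0 lenses was made into libraries with the NEB Next Ultra kit. The authors aligned reads to GRCm38/mm10 with STAR 2.5 and counted them with HTSeq 0.6.1, per the submitters' processing notes, and deposited FPKM values. The authors also deposited log2 fold changes, p-values and adjusted p-values from DESeq2. Annotation, strand and scaling total are not given in the sources used here. The 12001 genes whose mean reached 0.5 FPKM entered limma 3.58.1 (R 4.3.3) as log2(FPKM + 0.5), with a mean-variance trend and robust moderation, and no covariate beside genotype. Tests were two-sided, with Benjamini-Hochberg adjustment over all tested genes and a threshold of 0.05; log2 fold changes understate low genes. Exact permutation of 3 and 3 libraries gives no p under 0.1 and was not used. On simulated data with 200 changed genes among the 12001, in 5 runs of the comparison, 19.2% of 1.25-fold, 58% of 1.5-fold and 86% of 2-fold changes were recovered, and 4.45% of calls were false. Depth was estimated from the steps of small FPKM values and GENCODE M21 exon lengths. Near-identical copies were sought with blastn 2.17.0 (95% identity over 100 bases). Ddit3 matched no single GENCODE gene. Full values are given for called members, the sensors and effectors and the 4 most abundant members; other members (Hspa5, P4hb, Herpud1, Dnajc3, Dnajb11, Derl1) and Chac1, Trib3, Atf3, Atf4 and Hba-a1 were singled out after their values were seen. Up to 4 called genes are named per list of other pathway genes. Members and lists were chosen with earlier results of these data known. Alternatives were other pseudocounts, filters, moderation and scalings, a replicate block, and leaving out single libraries.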

Additional observations from a re-analysis of the deposited data

How the results depend on the processing

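Of 570 member values over 15 alternatives, 533 kept their direction and their side of the threshold. No filter on low values gave 568 calls in all, 1 member called lower and 7 other pathway genes called; it adds genes to the adjustment. Members called higher numbered 1 with quantile normalization and 2 with median-of-ratios scaling. Leaving out 1 library gave 1 to 4 members called lower, 611 to 870 calls in all and 5 to 10 other pathway genes called; fewer libraries were then tested. With median-of-ratios scaling 57.0% of all calls were higher, against 40.5% here. Same-lettered libraries did not deviate together (correlations A -0.03, B 0.028 and C 0.027); the replicate block gave 929 calls, 4 members called lower and 9 other pathway genes called. The sign changed for 11 members, none of them called. It did so with quantile normalization for Creld2 (0.003) and Ssr3 (-0.003) and with median-of-ratios scaling for Creld2 (0.009). Leaving out 1 library, log2 fold changes ran from -0.007 to 0.11 for Pdia3, -0.042 to 0.048 for Hsp90b1, -0.345 to 0.151 for Sdf2l1, -0.14 to 0.069 for Creld2, -0.044 to 0.24 for Xbp1, -0.553 to 0.223 for Ddit3, -0.075 to 0.597 for Herpud1, -0.058 to 0.094 for Derl2, -0.022 to 0.083 for Sec61b and -0.04 to 0.042 for Ssr1. The cause was not tested. Depth limits Derl3 and Sdf2l1 most.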
